A study of Homo sapiens with 6 samples.

Results

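The DUSP, Sprouty and SPRED families include inhibitors of mitogen-activated protein (MAP) kinase signalling. In all, 30 genes of these families were measured among 17687 genes in A375 cells with and without knockdown of the atypical MAP kinase ERK3. They were taken by symbol from the platform annotation, which gave 23 DUSP genes, 4 Sprouty genes (SPRY1 to SPRY4) and 3 SPRED genes (SPRED1 to SPRED3), each represented by a single probe set. A375 is an established human melanoma cell line. Cells were transfected with a predesigned Silencer Select siRNA against ERK3 (siERK3) or with the Silencer Select negative control siRNA (siCon), both delivered with DharmaFECT in serum-containing medium. Total RNA was taken 3 days later and run on Clariom S Pico human arrays, 3 arrays in each of the 2 groups. The labels name 1 cell line and 1 siRNA reagent against ERK3, without its sequence. Nothing in them states that replicates came from different cultures, and the p-values therefore describe the spread among these 6 arrays, part or all of which may be technical.

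Receptor tyrosine kinases activate RAS, RAF, MEK and then the classical kinases ERK1 and ERK2, and ERK in turn drives transcription of its own inhibitors. The MAP kinase phosphatases (MKPs) among the DUSPs remove phosphate from both the threonine and the tyrosine of the activation loop, Sprouty proteins dampen signalling between receptors and RAF, and SPRED proteins recruit the RAS GTPase-activating protein neurofibromin to the membrane. In melanoma cells with high ERK activity, DUSP4, DUSP6, SPRY2 and SPRY4 are commonly used as transcriptional readouts of the pathway. ERK3, encoded by MAPK6, lacks the double phosphorylation motif of the classical kinases.

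All values are log2 values as deposited, so a difference of 1 is a doubling of signal if the scale is a plain log2 scale. The target was checked first: MAPK6 had a mean of 13.54 ± 0.09 with the control siRNA and 10.51 ± 0.18 after knockdown (SD, n = 3 arrays each), a log2 change of -3.03. Array medians lay between 7.06 and 7.10. The 95th percentile of 612 negative control probe sets, between 7.32 and 7.56 on the 6 arrays, served as the background level, and 45.6% to 47.6% of genes lay above it. A pair of arrays, siCon 2 (-26.5) and siERK3 3 (-15.2), was separated on the second principal component from the remaining 4 (4.35 to 21.7). Leaving out both gave 0 called members. Among melanocyte lineage markers MITF, SOX10 and S100B lay above background on all arrays, whereas PAX3 and the pigmentation genes MLANA, PMEL, TYR and TYRP1 were above it on none.

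Upstream windows of 3 genes are shown so that the genes discussed first can be seen with their promoter letters: SPRY2 and DUSP6, whose siERK3 values lay below all siCon values, and SPRED3, whose siERK3 values lay above them. Each is the stretch of 250 bases before the most upstream start of the gene in RefSeq on GRCh38.p14, written 5′ to 3′ on the strand of the gene, with matches to any of 5 motifs in capitals.
SPRY2 (chr13:80341127-80341376, minus strand): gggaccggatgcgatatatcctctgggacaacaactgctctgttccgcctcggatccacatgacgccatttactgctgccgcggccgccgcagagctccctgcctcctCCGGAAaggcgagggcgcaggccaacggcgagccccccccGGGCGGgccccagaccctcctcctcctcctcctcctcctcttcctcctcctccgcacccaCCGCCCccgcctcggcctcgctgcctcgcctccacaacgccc
DUSP6 (chr12:89352502-89352751, minus strand): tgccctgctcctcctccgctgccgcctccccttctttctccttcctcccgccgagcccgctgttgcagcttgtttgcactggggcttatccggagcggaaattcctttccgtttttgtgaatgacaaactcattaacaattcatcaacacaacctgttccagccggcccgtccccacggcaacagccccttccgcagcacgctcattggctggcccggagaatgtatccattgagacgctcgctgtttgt
SPRED3 (chr19:38388447-38388696, plus strand): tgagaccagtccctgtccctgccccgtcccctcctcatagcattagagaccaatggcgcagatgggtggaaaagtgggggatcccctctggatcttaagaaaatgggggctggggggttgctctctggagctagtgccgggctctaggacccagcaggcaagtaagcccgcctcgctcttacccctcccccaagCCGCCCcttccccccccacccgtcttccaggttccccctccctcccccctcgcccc

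The motifs were searched on both strands, with 0 overlaps between different motifs in the members' windows: the ETS core CCGGAA, the AP-1 site TGANTCA, the cyclic AMP response element TGACGTCA, the E-box CACGTG and the GC box GGGCGG. The set of RefSeq promoter windows used here held 41 such windows for 26 of the 30 genes, several genes having more than 1 start. No window was available for DUSP4, DUSP5, DUSP12 or DUSP26, so the shares below leave these genes out. CCGGAA occurred in 3 of the 41 windows (7.3%), against 14.5% of all 35116 windows of the same length. In SPRY2 it lies at -142 to -137 from the start, followed by a pair of GC boxes. TGANTCA was found in 2 of 41 windows (4.9%, against 6.6% of all windows), 1 of them at another SPRED3 start, where TGACTCA lies at -60 to -54. The other is at a SPRY3 start on chromosome Y. TGACGTCA (2 windows, 4.9%, against 1.6%) stood in DUSP1 once and in DUSP8 at 2 positions. CACGTG was in 3 windows (7.3%, against 6.3%) and GGGCGG in 25 (61.0%, against 42.6%). The DUSP6 window holds none of these letter strings. These matches are descriptions of sequence and no binding was measured.

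No family member passed the test of siERK3 against siCon: limma with Benjamini-Hochberg adjustment over all genes called 0 of 30, against 0.956% of all genes (169 genes, and 23 to 60 with any 1 array left out). At an unadjusted p under 0.05 there were 4 members higher and 4 lower, against 6.98% and 6.50% of all genes, so that 26.7% of the members reached that level against 13.5% of all genes. The lower ones were SPRY2, DUSP5, DUSP3 and DUSP19, and the higher ones SPRED3, DUSP23, DUSP15 and DUSP28. The 3 siERK3 arrays lay wholly below the 3 siCon arrays for 8 members and wholly above them for 5 (13 of 30 without overlap), against 9.70%, 10.1% and, in either direction, 19.8% of all genes. The median log2 change of the 30 members was -0.11, beside -0.0014 over all genes. That median rests on single arrays, being -0.00025 without siCon 3 and -0.025 without siCon 2, and the 4 higher members were 2 without siERK3 1 or without siERK3 3.

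**Figure D1:**
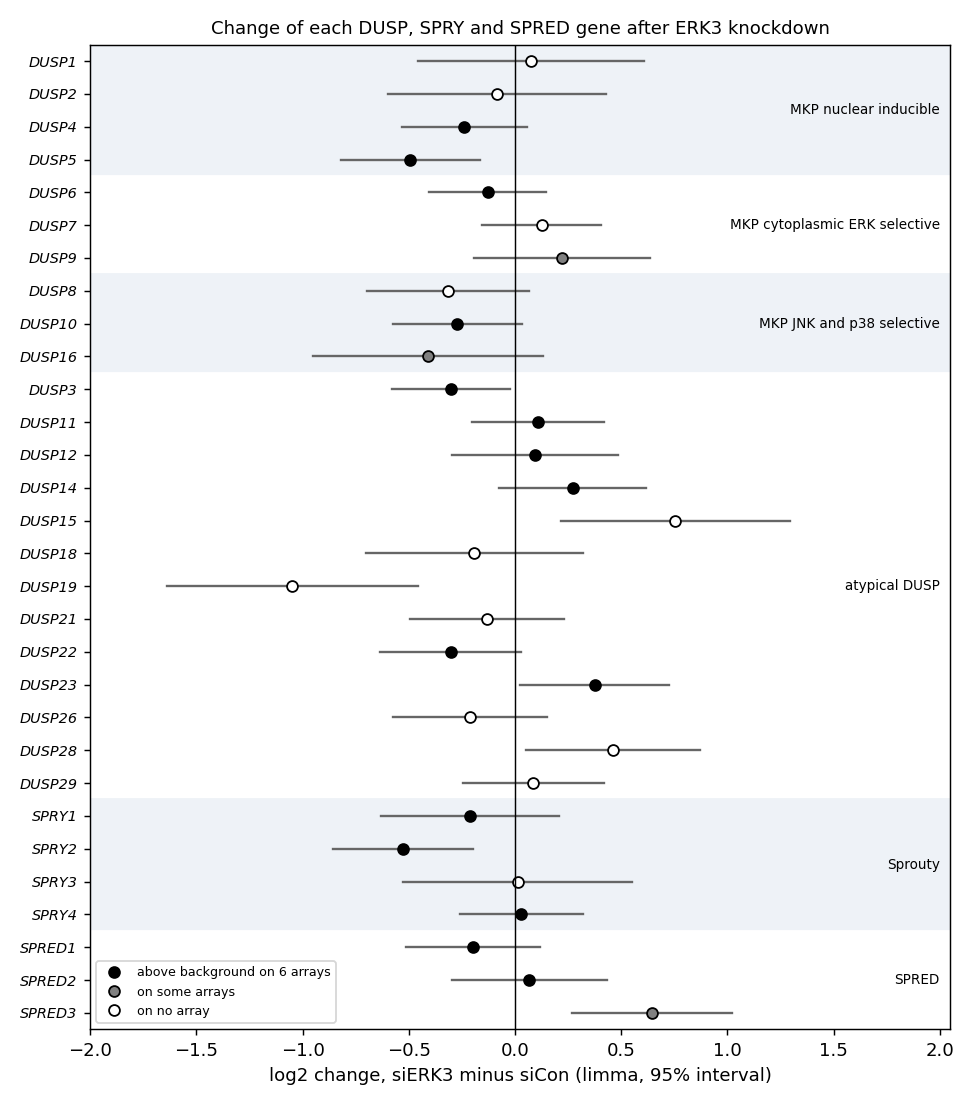
Log2 change (siERK3 minus siCon) of the 30 genes with the 95% interval of the limma fit on the horizontal axis, grouped by role. Filled points were above background on all 6 arrays (15 genes), grey points on some arrays (3) and open points on none (12). Among filled and grey points SPRY2, DUSP5 and DUSP3 have intervals below 0, and SPRED3 and DUSP23 intervals above 0; the largest point estimates in each direction, DUSP19 and DUSP15, are open points.

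Detection divided the families. On all 6 arrays 15 members lay above background: DUSP4, DUSP5, DUSP6 and DUSP10 among the MKPs, DUSP3, DUSP11, DUSP12, DUSP14, DUSP22 and DUSP23 among the atypical DUSPs, and SPRY1, SPRY2, SPRY4, SPRED1 and SPRED2. DUSP9, DUSP16 and SPRED3 were above it on some arrays. The remaining 12 were above it on none, including DUSP1 and DUSP2, inducible nuclear phosphatases, DUSP7 and DUSP8, and SPRY3. Of the 15 genes above background throughout, 7 had all siERK3 arrays below all siCon arrays and 2 had them above, against 15.0% and 14.5% of the 7721 genes equally above background.

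The inducible nuclear MKPs and the ERK-selective DUSP6 come first, since they act on ERK itself. DUSP5, a nuclear phosphatase specific for ERK, read 10.20, 10.06 and 10.16 in siCon 1 to 3 and 9.45, 9.83 and 9.67 in siERK3 1 to 3. Every siERK3 array was lower than every siCon array, and siERK3 1 was the lowest. The log2 change of -0.49 (SE 0.14, 95% interval -0.82 to -0.17) had an unadjusted p of 0.00782 and an adjusted p of 0.180 in limma. When only genes above the median of mean level were tested, its adjusted p was 0.0485. DUSP4, a nuclear phosphatase of ERK and JNK, stood at 13.37, 13.37 and 13.59 in siCon and 13.20, 13.22 and 13.19 in siERK3. Its groups did not overlap, the 3 siERK3 arrays were nearly equal, and the log2 change was -0.24 (SE 0.13, interval -0.53 to 0.06; adjusted p = 0.487 in limma).

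DUSP6, the cytoplasmic phosphatase that binds ERK directly, read 12.33, 12.31 and 12.40 in siCon and 12.20, 12.21 and 12.24 in siERK3. Here too the groups did not overlap, with a log2 change of -0.13 (SE 0.12, interval -0.41 to 0.15; adjusted p = 0.716 in limma). The interval leaves out a halving of the DUSP6 signal, a log2 change of -1. Its ERK-selective relatives had positive estimates: DUSP9 had a log2 change of 0.22 (SE 0.18) and DUSP7, below background on all arrays, of 0.13 (SE 0.12), and neither passed. The DUSP9 estimate was 0.081 without siCon 2 or without siERK3 2, and the DUSP7 estimate 0.083 without siCon 3. DUSP1 and DUSP2 lay between 6.13 and 7.13 on all arrays, below background, with overlapping groups.

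Among the MKPs that prefer JNK and p38, none reached an unadjusted p of 0.05, and all 3 had negative estimates. DUSP10 lay between 10.62 and 10.82 in siCon and between 10.36 and 10.54 in siERK3, with no overlap and a log2 change of -0.27 (SE 0.13, interval -0.57 to 0.03; adjusted p = 0.433 in limma). DUSP16 lay near background, above it on 1 siCon array, and its estimate of -0.41 (SE 0.24) rests on siERK3 2 at 6.44, since without that array it was -0.13. DUSP8 was below background on all arrays, at 3.37 to 4.09.

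**Figure D2:**
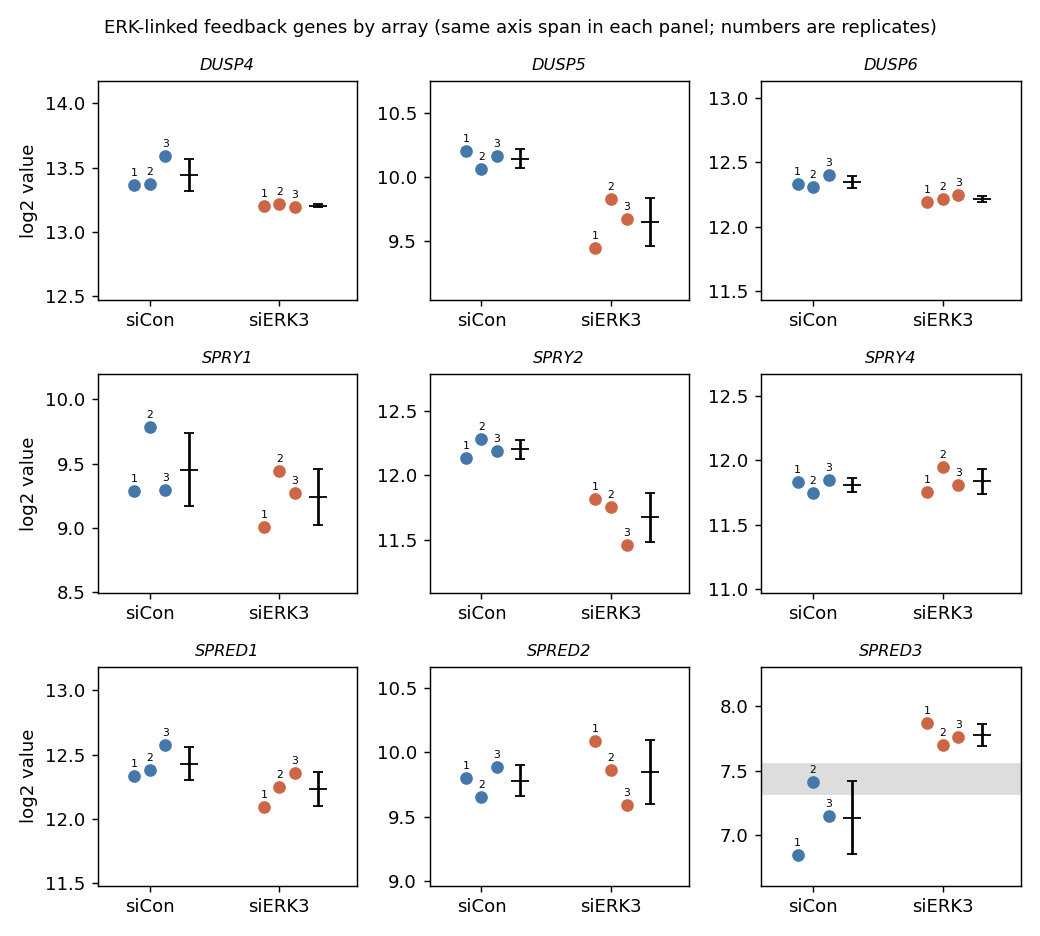
Log2 value (vertical axis) of 9 feedback genes on each array, siCon in blue and siERK3 in orange, numbered by replicate, with the mean and SD beside the points and the same axis span in all panels; the grey band for SPRED3 is the range of the arrays' background levels. DUSP4, DUSP5, DUSP6 and SPRY2 have all siERK3 points below all siCon points, SPRED3 has them above, and SPRY1, SPRY4, SPRED1 and SPRED2 overlap.

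The Sprouty genes did not show a common shift. SPRY2, which restrains receptor tyrosine kinase signalling upstream of RAF, read 12.14, 12.28 and 12.19 in siCon and 11.81, 11.75 and 11.46 in siERK3. All siERK3 arrays were below all siCon arrays, with siERK3 3 the lowest. The log2 change was -0.53 (SE 0.14, interval -0.85 to -0.20), with an unadjusted p of 0.00556 and an adjusted p of 0.150 in limma. Under other settings SPRY2 passed: its adjusted p was 0.0105 with a mean-variance trend and robust variance estimation, and 0.0374 among genes above the median of mean level. Without siCon 2 and siERK3 3 its change was -0.38 (adjusted p = 0.413 in limma).

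SPRY4, another target of ERK signalling, read 11.83, 11.74 and 11.85 in siCon and 11.76, 11.95 and 11.80 in siERK3. The groups overlapped, and the change of 0.03 (SE 0.13, interval -0.26 to 0.32) turned to -0.0017 without siCon 2 and -0.025 without siERK3 2. SPRY1 had 9.29, 9.78 and 9.29 in siCon and 9.01, 9.44 and 9.27 in siERK3, with overlapping groups and a change of -0.21 (SE 0.18, interval -0.63 to 0.21), which was -0.049 without siCon 2 and -0.097 without siERK3 1. Within each array, the difference of SPRY2 from SPRY4 shifted by -0.56 between groups, with no overlap (SD 0.13 in siCon and 0.20 in siERK3, n = 3 each), and that of SPRY2 from SPRY1 by -0.31, with overlap. These pairs were chosen after the values were seen, so the shifts are descriptions and were not tested.

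In the SPRED genes the estimates had different signs. SPRED3, the family member that lacks a functional KIT-binding domain, read 6.85, 7.41 and 7.14 in siCon and 7.87, 7.70 and 7.76 in siERK3. The groups did not overlap, and the gene was above background on 1 siCon array and on all 3 siERK3 arrays. Its log2 change of 0.64 (SE 0.17, interval 0.27 to 1.02) had an unadjusted p of 0.00396 and an adjusted p of 0.129 in limma, and 0.0327 among genes above the median of mean level. SPRED1, whose loss causes Legius syndrome, read 12.33, 12.38 and 12.58 in siCon and 12.10, 12.25 and 12.36 in siERK3, with overlap and a change of -0.20 (SE 0.14, interval -0.51 to 0.12; adjusted p = 0.611 in limma), or -0.13 without siCon 3 or siERK3 1. SPRED2 read 9.80, 9.65 and 9.89 in siCon and 10.09, 9.86 and 9.59 in siERK3. Its siERK3 arrays spread more widely than its siCon arrays, and the change of 0.07 (SE 0.16, interval -0.30 to 0.43) was -0.054 without siERK3 1.

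**Figure D3:**
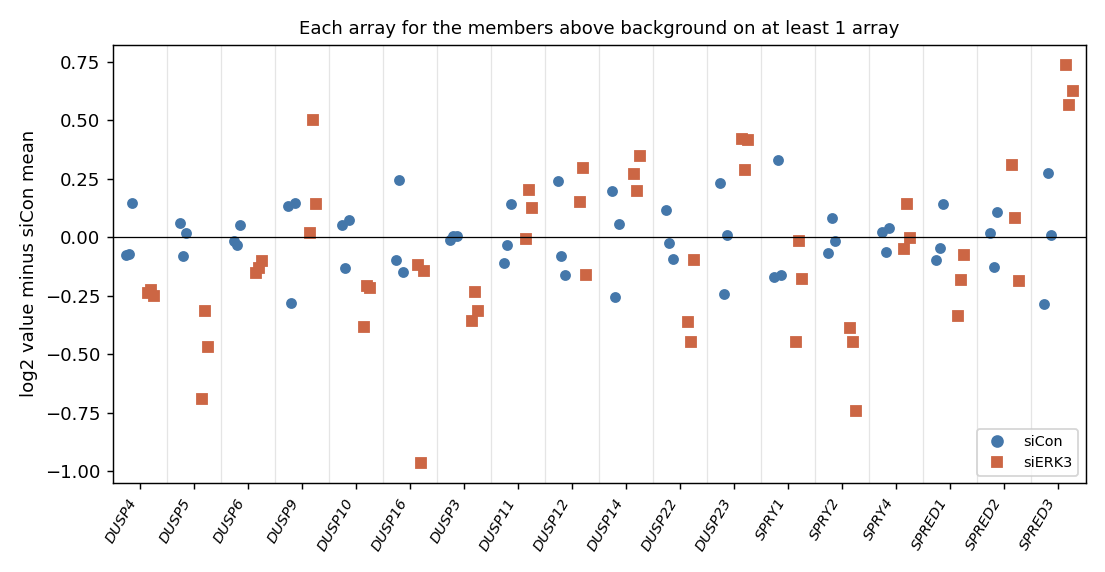
Log2 value minus the mean of siCon (vertical axis) on each of the 6 arrays for the 18 genes above background on at least 1 array. Circles are siCon and squares siERK3. The squares of SPRED3 all lie above its circles, those of SPRY2 and DUSP5 all lie below theirs, and DUSP16 has a single low square from siERK3 2.

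The atypical DUSPs lack the kinase-docking domain of the MKPs and several act on substrates other than MAP kinases. DUSP3, a small phosphatase reported to act on ERK and JNK, read 11.10, 11.12 and 11.11 in siCon and 10.75, 10.88 and 10.79 in siERK3. The siCon arrays were nearly equal and lay above all siERK3 arrays, and the change was -0.30 (SE 0.12, interval -0.58 to -0.02; unadjusted p = 0.0367, adjusted p = 0.332 in limma). DUSP23 read 9.59, 9.11 and 9.37 in siCon and 9.78, 9.64 and 9.77 in siERK3. Its groups did not overlap, with siCon 2 the lowest, and the change was 0.37 (SE 0.15, interval 0.02 to 0.73; adjusted p = 0.341 in limma), or 0.23 without siCon 2 and siERK3 3. DUSP22, known for acting in JNK signalling, had a change of -0.30 (SE 0.15) and DUSP14 of 0.27 (SE 0.15), each with an interval that includes 0. The groups of each did not overlap but nearly touched. For DUSP22 siCon 3 read 8.604 and siERK3 3 8.600, and for DUSP14 siCon 1 read 9.765 and siERK3 2 9.767. The DUSP14 estimate was 0.14 without siCon 2 and 0.11 without both siCon 2 and siERK3 3. DUSP11, a phosphatase of RNA 5′ ends, and DUSP12 had changes of 0.11 (SE 0.14) and 0.09 (SE 0.17), with overlapping groups. Without siCon 1 the DUSP11 estimate was 0.054, and without siERK3 2 the DUSP12 estimate turned to -0.0067.

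The largest estimates of the families belonged to genes below background on every array, so no fold is given for them. DUSP19 read 5.63, 6.01 and 5.95 in siCon and 5.41, 4.32 and 4.72 in siERK3, a log2 difference of -1.05 (SE 0.26; adjusted p = 0.118 in limma) without overlap. With a mean-variance trend and robust variance estimation its adjusted p was 0.0289. DUSP15 read 5.96, 5.25 and 5.26 in siCon and 5.87, 6.39 and 6.48 in siERK3, with overlap and a difference of 0.76 (SE 0.24; adjusted p = 0.213 in limma). DUSP28 read 4.00, 4.30 and 4.27 in siCon and 4.83, 4.30 and 4.82 in siERK3, a difference of 0.46 (SE 0.18, adjusted p = 0.314 in limma). Its groups did not overlap but nearly touched, at 4.297 in siCon 2 and 4.300 in siERK3 2. The other members below background (DUSP18, DUSP21, DUSP26 and DUSP29) had estimates between -0.21 and 0.09, and SPRY3 had one of 0.01.

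Other genes of the pathway were set beside the families. In the RAS to ERK cascade, 16 of 21 listed genes were measured and none passed limma's test. At an unadjusted p under 0.05, 2 were higher and 2 lower, 25.0% of the list against 13.5% of all genes: MAPK3, which encodes ERK1, at 0.75 (adjusted p = 0.0644), and the adaptor SHC1 at 0.34 were higher, and MAP2K1, which encodes MEK1, at -0.68 (adjusted p = 0.0774), and the small GTPase RRAS2 at -0.36 were lower. Of the MAP kinases that MKPs dephosphorylate, 8 of 10 were measured, and the median change was 0.23. MAPK3 was the 1 with an unadjusted p under 0.05 (12.5%, against 13.5% of all genes). Of the 8, 4 lay below background on all arrays (MAPK7, MAPK10, MAPK11 and MAPK13), with changes of 0.10 to 0.29. The 4 above it on all arrays had changes of 0.75 (MAPK3), 0.25 (MAPK12), -0.08 (MAPK8) and -0.34 (MAPK9).

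Transcriptional outputs of ERK outside the families had a median log2 change of -0.18 over 19 of 20 listed genes, beside -0.11 for the families and -0.0014 for all genes. CCND1, which encodes cyclin D1, was the 1 that passed over all genes, with a change of -0.74 (adjusted p = 0.0471 in limma), and it passed in 0 of the 6 fits with 1 array left out (adjusted p 0.0825 to 0.166). At an unadjusted p under 0.05, 4 were lower and 1 higher, 26.3% of the list against 13.5% of all genes. Besides CCND1 the lower ones were FOSL1, an AP-1 subunit, at -0.71, the cytokine LIF at -0.83 and the receptor EPHA2 at -0.38, and the higher one was FOSB, below background on all arrays, at 0.37. Other inhibitors of RAS and ERK signalling had a median of 0.01 over 15 of 16 listed genes, and none passed; PTPRR and PTPN5, tyrosine phosphatases of ERK, were lower and LZTR1, an adaptor for RAS ubiquitination, higher at an unadjusted p under 0.05 (20.0%, against 13.5% of all genes), and all 3 lay below background on all arrays.

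**Figure D4:**
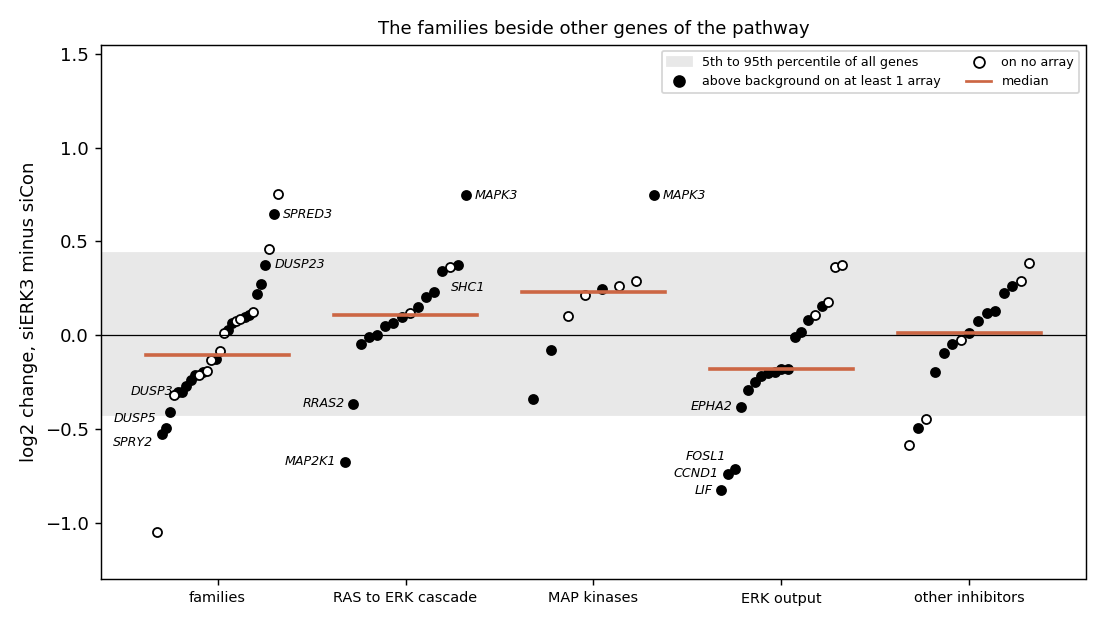
Log2 change (siERK3 minus siCon, vertical axis) of each measured gene of the families and of 4 other pathway lists, sorted within each list, with the list median as an orange bar and the 5th to 95th percentile of all genes (-0.43 to 0.44) shaded. Names mark genes above background on at least 1 array with an unadjusted p under 0.05; the largest named estimates are those of MAPK3 and SPRED3 upward and LIF, CCND1, FOSL1 and MAP2K1 downward.

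The labels name only the A375 cell line. Markers of other cell types were still examined on the same arrays. In bulk RNA, fewer cells of a type and less RNA per cell cannot be told apart. Endothelial, leukocyte and keratinocyte markers lay below background on all arrays (0 of 5, 0 of 4 and 0 of 5 measured genes above it). Fibroblast markers averaged 6.88 to 7.24 in siCon and 7.06 to 7.26 in siERK3 over 6 measured genes. Of these, LUM fell by 0.83 (adjusted p = 0.0441 in limma, and 0.0825 to 0.157 with each of the 6 arrays left out). PDGFRB had a change of 0.75 (adjusted p = 0.0631 in limma). It was above background on the 3 siERK3 arrays and on no siCon array. COL1A2, above background on all 6 arrays, had a change of -0.21 (adjusted p = 0.688 in limma). COL1A1, PDGFRA and DCN lay below background on all arrays. The part of these genes' sources in the values of the DUSP, Sprouty and SPRED genes was not tested.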

How the data were processed

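Clariom S Pico arrays measured A375 RNA in 2 groups of 3 arrays. Per array and probe set, the table deposited by the authors holds a log2 value. How it was summarised, corrected for background and normalized is not stated in the labels, the zero point and any stretch of the scale stay unknown, and the table has no detection calls. The platform annotation gave 1 symbol for 17709 of 24351 probe sets, and the brightest probe set by mean was kept for each of 17687 genes. No filter or pseudocount was applied. The siERK3 arrays were tested against the siCon arrays in R 4.3.3 using limma 3.58.1 (lmFit, eBayes, no covariate; Benjamini-Hochberg over all genes, threshold 0.05), which gave the standard errors, 95% intervals and p-values. The number of arrays limits the precision. The script was tested on simulated data.

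Members and gene lists were chosen with earlier results of these data known. Per-array values are given for members with an unadjusted p under 0.05 and for DUSP4 to DUSP6, SPRY1, SPRY2, SPRY4 and the SPRED genes; other members were named after their values were seen. Outside the families, list genes with an unadjusted p under 0.05 are named. Alternatives covered normalization, low-value filters, probe set choice, variance model, a replicate block and each array left out. Promoter windows came from a RefSeq table (GRCh38.p14). Listed genes that were not measured were not analysed here.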

Additional observations from a re-analysis of the deposited data

How the results depend on the processing

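No member was called in any fit except those below. Among genes above the median of mean level 3 members passed (SPRY2, DUSP5 and SPRED3, of 18 tested), beside 581 genes in all. The share of the tested genes that passed in that fit was not counted, so the 3 members have no share beside them. With a mean-variance trend and robust variance estimation 2 of 30 passed (SPRY2 and DUSP19), beside 722 of all 17687 genes. Both fits called more genes than the 169 of the main fit. Fewer genes are tested in the former, and its standard errors differ too, for SPRY2 0.126 against 0.144 in the main fit. The number of genes called among all genes, 169, was 365 and 581 among genes above the 30th percentile and the median of mean level, 722 with the trend, 8 without moderation of the variance, 7 without siCon 2 and siERK3 3 (an alternative chosen after seeing the data), and 23 to 60 with 1 array left out. Members above background on all arrays, 15, were 8 against the 99th percentile of the negative controls and 25 against their median.

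The 4 members higher at an unadjusted p under 0.05 were 2 among genes above the median, 1 without moderation, 1 without siCon 2 and siERK3 3, and 2 to 3 with 1 array left out. The 4 lower were 7 without moderation and 3 to 5 with 1 array left out. The share of all genes at that level was counted in the main fit only, so these counts have no share beside them. The members' median change of -0.11 was -0.16 among genes above the median, -0.055 without siCon 2 and siERK3 3, and -0.13 to -0.00025 with 1 array left out. Of all 30 members, 22 kept their sign in all fits that tested them, and of the 14 with values for each array 12 did. Signs could change only with another normalization, with array weights or with arrays left out. The low-value filters, probe set choice, variance model and replicate block left each member's log2 change as it was. SPRY4 ranged from -0.025 to 0.070 (-0.0017 without siCon 2) and SPRED2 from -0.054 to 0.20 with 1 array left out. The cause of these shifts was not tested.

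Same-numbered arrays of the groups did not deviate together (correlations of 0.05, -0.12 and -0.04 across genes), so the numbers were not taken as pairs. With the replicate block, 33 genes and 0 members were called. Members at an unadjusted p under 0.05 were 4 higher and 3 lower, counts with no share of all genes beside them. The block leaves each log2 change as in the main fit, so the median stayed at -0.11 by design. Not every array correlated best with its own number.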
